A study of Homo sapiens with 4 samples.

Results

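The genes described here are the nuclear-encoded genes of oxidative phosphorylation, the chain of protein complexes that passes electrons to oxygen and makes ATP in mitochondria. They were taken by symbol from the protein-coding genes of the expression table: every symbol that begins with NDUF, UQCR, ATP5 or COX followed by a digit from 4 to 8, and the SDH genes of succinate dehydrogenase. This gave 101 of the 48162 genes listed, under 97 symbols, of which 79 genes encode subunits of a complex and the others encode assembly factors, paralogs with restricted expression, readthrough transcripts or proteins that only share the name. By complex they fell into 47 genes of complex I, 5 of complex II, 9 of complex III, 20 of complex IV and 20 of complex V. NDUFA4 and its paralog NDUFA4L2 carry complex I symbols but were placed with complex IV, where the NDUFA4 protein resides.

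Poly(A) RNA was sequenced from MDA-MB-231 cells, a human line established from a triple-negative breast cancer. Cells were exposed for 24 h to MGH-CP1 at 10 µM (2 libraries) or to vehicle (2 libraries), with no other genotype or agent in the design. MGH-CP1 is named in the series title as an inhibitor of the palmitoylation of TEAD proteins, through which YAP and TAZ reach DNA. Whether replicates were separate cultures is not stated, so the p-values reflect spread among 4 libraries that may be technical. In RNA from a whole culture fewer cells and less RNA per cell cannot be told apart.

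Depth was 16790645 to 18485701 assigned reads per library, with 20000 to 20544 genes detected by 1 read or more. Values are FPKM, fragments per kilobase of gene length and scaled to the reads of the library, so levels of different genes are given per length. For a 1-kb gene, 1 read equalled 0.0541 to 0.0596 FPKM, depending on the library, and the lowest read number behind any tested member in any library was 33. The markers of the line were present, with KRT19, KRT8, CD44, KRT7 and VIM all above 147 FPKM in each library and KRT18 between 59.4 and 78.7 FPKM. ESR1 and PGR, the hormone receptors that triple-negative cells lack, were at 0 in every library except for 0.00912 FPKM of ESR1 in the second MGH-CP1 library. ERBB2 lay between 24.5 and 26.3 FPKM. Of 11 genes that mark blood, endothelial, fibroblast or liver cells, none exceeded 3.24 FPKM.

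Complexes I and II feed electrons from NADH and succinate to ubiquinone, complex III passes them to cytochrome c, and complex IV passes them to oxygen. Complexes I, III and IV pump protons as they do so, and complex V, the ATP synthase, uses the returning protons to make ATP. A few core proteins of complexes I, III, IV and V are encoded by mitochondrial DNA, while the genes described here are transcribed in the nucleus, several of them under the transcription factors NRF1, GABP (an ETS factor), YY1 and SP1.

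With all 4 libraries in the fit, most nuclear genes of the respiratory chain did not differ between cells given MGH-CP1 and cells given vehicle beyond the test's threshold. Of the 78 members with a mean of at least 1 FPKM, 2 were higher and 12 were lower under MGH-CP1 at an adjusted p under 0.05 in limma (Benjamini-Hochberg over all 11790 genes tested). Among all genes tested, 20.0% were higher and 25.1% were lower, so that 45.0% passed in either direction, against 17.9% of the members. The median log2 fold change of the members was 0.01, against -0.02 over all genes tested, and the median of its size without sign was 0.12, against 0.23. The largest fall among the members was -0.63 and the largest difference upward was 0.28, and no member reached a log2 fold change of 1 in either direction, whereas 396 genes of the table did. For 61 of the 78 members the 95% interval of the log2 fold change lay within 0.5 of 0, which was the case for 6671 of the 11790 genes tested.

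**Figure D1:**
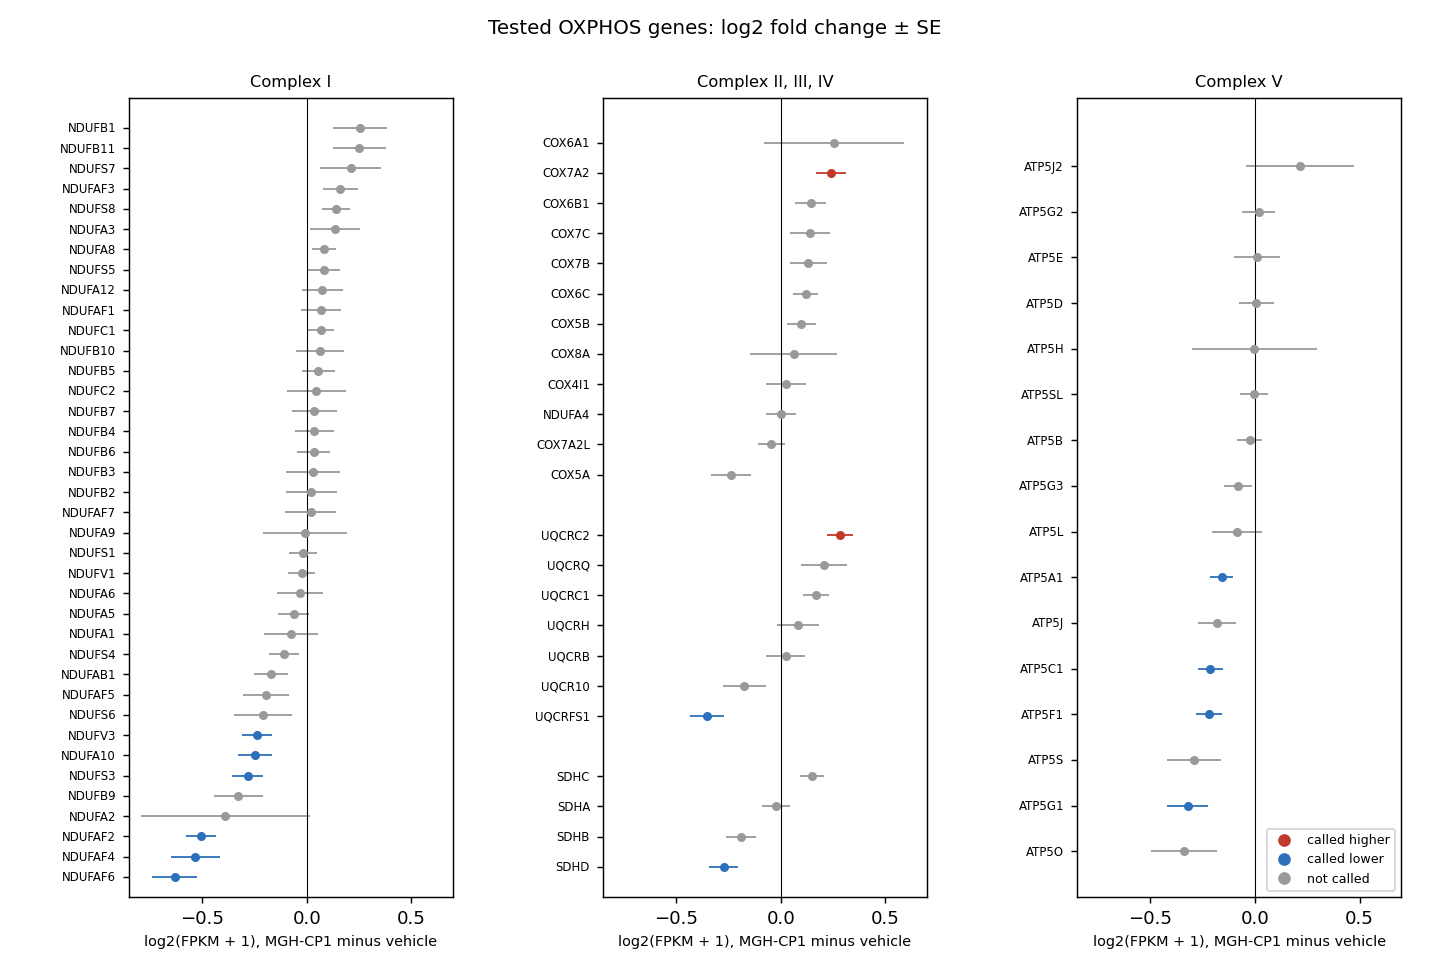
Log2 fold change (MGH-CP1 minus vehicle, on the log2(FPKM + 1) scale) of tested members, by complex, with bars of 1 SE from limma. The 12 members called lower (blue) include 3 NDUFAF assembly factors at the foot of the complex I panel, the 2 members called higher (red) are UQCRC2 and COX7A2, and grey points did not pass the test.

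The counts depended on the scaling and on each of the libraries. A fit without 1 library leaves 1 library in that group, so its error takes in only the spread of the other group's pair. With the library medians centred, 4 members were higher and 6 lower (12.8% called, against 45.0% of all genes tested). With no minimum on the mean, 1 was higher and 2 were lower (3.23% called, against 14.6% of all genes tested). Without the first vehicle library, 25 members were higher and 10 lower, and without the second vehicle library, 2 were higher and 25 lower. The share of members called was then 44.9% without the first vehicle library, against 47.1% of all genes, and 34.6% without the second, against 46.9% of all genes, so the gap between members and all genes in the full fit was nearly gone in the first of these fits. Without the first vehicle library 32.1% of members were higher, against 21.7% of all genes, and without the second 32.1% of members were lower, against 26.2% of all genes. Without the first MGH-CP1 library the median log2 fold change of the members was -0.034, and without the second it was 0.035. All 14 members called kept their direction in every alternative computation. Because their groups do not overlap, leaving out 1 library could not reverse this direction. Another minimum or a replicate block left each fold change as it was. Only NDUFAF2 and NDUFAF6 passed the test in all the computations in which they were tested.

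**Figure D2:**
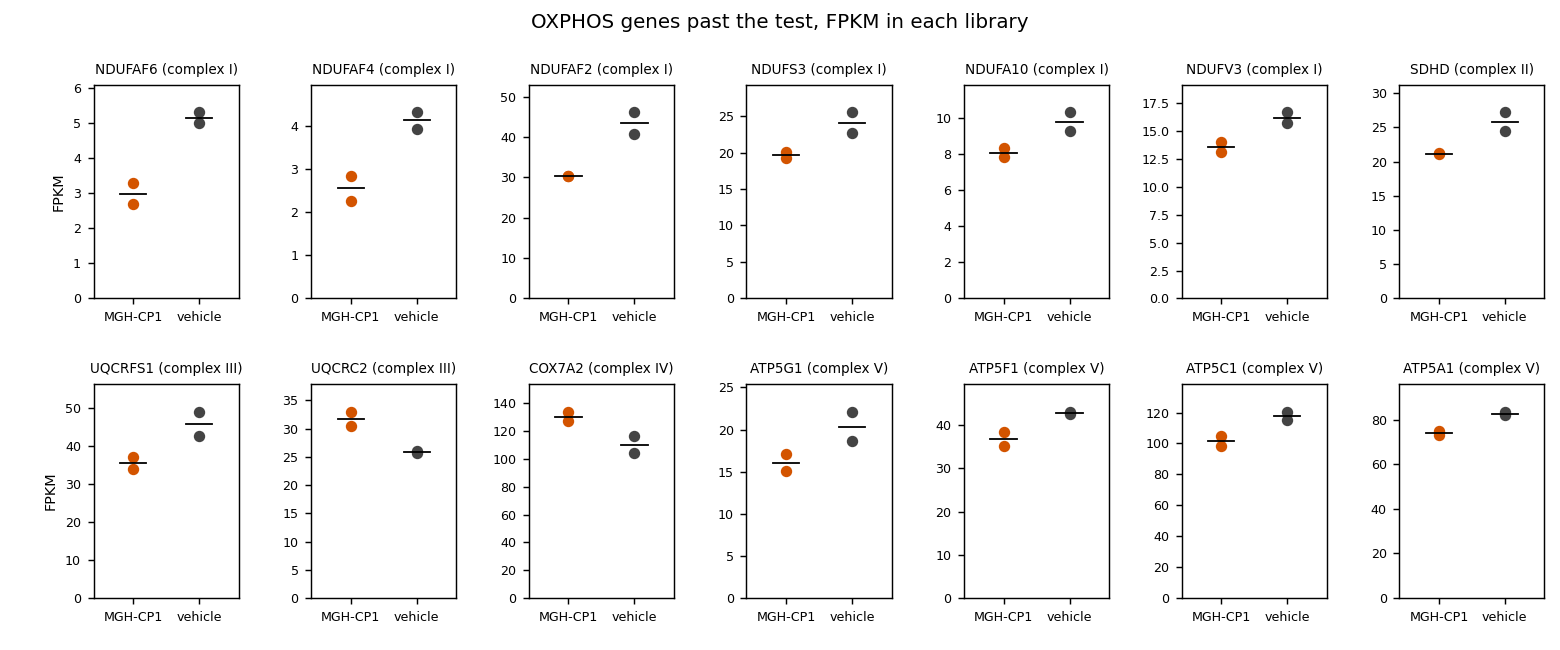
FPKM in each library (points) and group means (lines) for the 14 members that passed the test, MGH-CP1 on the left and vehicle on the right of each panel, with each axis starting at 0. The MGH-CP1 and vehicle points do not overlap in any panel, which adds little for genes chosen by the test. The groups were likewise apart in 8732 of the 11790 genes tested and in 38 of the 78 tested members. The mean of UQCRC2 was 31.8 FPKM under MGH-CP1 and 25.9 FPKM under vehicle.

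The promoters of 5 called members are shown because the compound is aimed at a DNA-binding factor and because nuclear respiratory genes are known for shared promoter motifs. RefSeq windows of 300 bases around the transcription start (GRCh38.p14, another build than the hg19 of the expression table) were matched to 63 of the 78 tested members. The first 4 windows belong to members that were lower under MGH-CP1, 3 with motif matches and NDUFAF2 without, and the last belongs to UQCRC2, which was higher. Capitals mark matches, on either strand, to NRF1 (GCGCANGCG), to the ETS motif of GABP (CCGGAAG) and to YY1 (AANATGGCG), where N is any base.
NDUFS3, chr11:47578824-47579123, plus strand: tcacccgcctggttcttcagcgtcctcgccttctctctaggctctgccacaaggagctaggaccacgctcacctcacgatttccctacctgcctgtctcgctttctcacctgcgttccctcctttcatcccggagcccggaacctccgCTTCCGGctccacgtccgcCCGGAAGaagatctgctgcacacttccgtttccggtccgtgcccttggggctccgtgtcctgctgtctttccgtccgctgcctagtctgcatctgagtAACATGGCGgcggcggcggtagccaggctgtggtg
SDHD, chr11:112086623-112086922, plus strand: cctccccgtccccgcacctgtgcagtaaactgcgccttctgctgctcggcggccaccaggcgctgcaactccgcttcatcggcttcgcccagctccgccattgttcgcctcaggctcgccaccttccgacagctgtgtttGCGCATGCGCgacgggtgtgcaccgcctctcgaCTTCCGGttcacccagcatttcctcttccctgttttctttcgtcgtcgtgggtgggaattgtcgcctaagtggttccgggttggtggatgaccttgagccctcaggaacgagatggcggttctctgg
UQCRFS1, chr19:29213102-29213401, minus strand: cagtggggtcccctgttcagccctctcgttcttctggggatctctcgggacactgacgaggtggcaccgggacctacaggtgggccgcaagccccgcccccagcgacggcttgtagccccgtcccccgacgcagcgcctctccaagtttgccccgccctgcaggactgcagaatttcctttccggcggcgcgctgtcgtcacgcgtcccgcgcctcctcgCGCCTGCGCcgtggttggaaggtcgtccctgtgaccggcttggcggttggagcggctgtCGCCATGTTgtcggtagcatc
NDUFAF2, chr5:60944955-60945254, plus strand: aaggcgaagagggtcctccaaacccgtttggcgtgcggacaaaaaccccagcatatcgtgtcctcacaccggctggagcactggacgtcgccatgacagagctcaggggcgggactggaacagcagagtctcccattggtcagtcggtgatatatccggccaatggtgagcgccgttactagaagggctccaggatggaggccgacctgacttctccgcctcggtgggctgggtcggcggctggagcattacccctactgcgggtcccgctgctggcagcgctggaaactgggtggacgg
UQCRC2, chr16:21953111-21953410, plus strand: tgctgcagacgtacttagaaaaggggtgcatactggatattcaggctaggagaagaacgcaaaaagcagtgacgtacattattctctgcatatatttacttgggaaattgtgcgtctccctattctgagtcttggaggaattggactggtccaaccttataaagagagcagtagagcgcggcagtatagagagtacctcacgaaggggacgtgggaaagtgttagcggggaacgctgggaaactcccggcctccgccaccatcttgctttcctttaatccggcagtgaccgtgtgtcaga
The NDUFS3 window holds the ETS letters once on each strand and the YY1 letters once, next to the end of the window. The SDHD window holds a palindromic NRF1 match, which is read on both strands, and an ETS match. UQCRFS1 has NRF1 and YY1 matches, and the NDUFAF2 and UQCRC2 windows have none of these motifs. Of the 11 matched members called lower, 6 had at least 1 of the 3 motifs and 5 had none (NDUFAF2, NDUFV3, NDUFA10, ATP5F1 and ATP5G1), of the 2 called higher neither had one, and of the 50 not called 32 had at least 1.

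Over the 63 matched members, NRF1 letters were found in 31.7% of promoters, against 17.9% of the 9044 tested genes with a window and 7.5% of all 35116 windows. YY1 letters were found in 22.2% of members, against 8.8% of tested genes and 3.2% of all windows. ETS letters were found in 28.6% of members, 23.8% of tested genes and 10.3% of all windows. The letters GGAATG, the core that TEAD proteins are known to bind, were in 9.5% of members, against 14.9% of tested genes and 14.03% of all windows, and the E-box CACGTG was in 6.3% of members, against 12.8% and 7.3%. Both strands were searched, and no match of one motif overlapped a match of another in the 63 windows. A gene with several listed starts was counted once if any of its windows held the letters, which concerns 9 of the 63 members and 29.2% of the tested genes. Members with NRF1 letters had a median log2 fold change of -0.04 and members without them had 0.02, and 3 of the 11 matched members called lower held them (SDHD, UQCRFS1 and ATP5C1).

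Complex I is the largest of the complexes, and its nuclear genes comprise core subunits, most of which bind the flavin or the iron-sulfur clusters, accessory subunits around them, and NDUFAF factors that assemble the complex without staying in it. Of 39 tested complex I genes, 6 passed the test (15.4%, against 45.0% of all genes tested) and all 6 were lower. Of the 39 log2 fold changes, 18 were below 0, and the median was 0.02. Of the 6 tested core subunits, 1 passed the test and was lower (16.7% called). NDUFS3, a core subunit of the arm that reaches into the matrix (hg19, chr11:47586888-47606114, plus strand), had 19.2 and 20.0 FPKM under MGH-CP1, against 25.5 and 22.7 FPKM under vehicle. Both MGH-CP1 libraries lay below both vehicle libraries, with -0.28 ± 0.07 (SE) as the log2 fold change (limma adjusted p = 0.0186). CELF1, transcribed from the opposite strand at 24.2 FPKM, overlaps this gene, and reads of the 2 genes may not have been told apart. Of the other core subunits, NDUFV1, NDUFS1, NDUFS7 and NDUFS8 had log2 fold changes between -0.03 and 0.21 and did not pass.

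Among the 26 tested accessory subunits, 2 passed the test (7.69%, against 45.0% of all genes tested), both lower. NDUFA10, a subunit of the membrane arm's matrix side, had 8.32 and 7.82 FPKM under MGH-CP1, against 10.3 and 9.27 FPKM under vehicle. NDUFV3, which sits beside the flavin-carrying NDUFV1, had 13.99 and 13.1 FPKM under MGH-CP1, against 15.7 and 16.6 FPKM under vehicle. For each of these genes the MGH-CP1 libraries were the lower pair. The log2 fold changes were -0.25 ± 0.08 for NDUFA10 (limma adjusted p = 0.0434) and -0.24 ± 0.07 for NDUFV3 (limma adjusted p = 0.0286), and these calls held in 5 and 6 of 11 alternatives. NDUFS5, an accessory subunit of the intermembrane-space side and the most abundant complex I message, had 254 and 254 FPKM under MGH-CP1, against 259 and 223 FPKM under vehicle. Both MGH-CP1 values lay between the vehicle values (log2 fold change 0.08 ± 0.08). NDUFB1 and NDUFB11, with log2 fold changes of 0.25 each, had the largest differences upward in complex I and did not pass the test (limma adjusted p = 0.155 and 0.143).

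Of the 7 NDUFAF assembly factors, 3 passed the test (42.9%, near the 45.0% of all genes tested) and all 3 were lower. The 7 factors had a median log2 fold change of -0.19. They held all members with a log2 fold change beyond 0.5 in size, a size exceeded by 2227 of the 11790 genes tested. NDUFAF2, an assembly factor related to the subunit NDUFA12 (hg19, chr5:60240956-60448853, plus strand), had 30.2 and 30.2 FPKM under MGH-CP1, against 46.1 and 40.6 FPKM under vehicle. NDUFAF6, a factor of early assembly, had 3.29 and 2.68 FPKM under MGH-CP1, against 5.31 and 5.0 FPKM under vehicle. NDUFAF4, a partner of NDUFAF3 in early assembly (hg19, chr6:97337189-97345757, minus strand), had 2.27 and 2.85 FPKM under MGH-CP1, against 3.95 and 4.32 FPKM under vehicle. In all 3 genes the MGH-CP1 libraries lay below both vehicle libraries. The log2 fold change was -0.50 ± 0.07 for NDUFAF2 (limma adjusted p = 0.00136), -0.63 ± 0.11 for NDUFAF6 (limma adjusted p = 0.00311) and -0.53 ± 0.12 for NDUFAF4 (limma adjusted p = 0.00892). NDUFAF6 is overlapped on the opposite strand by TP53INP1 at 3.52 FPKM and CCNE2 at 2.06 FPKM, which is of the order of its own level. The other factors, NDUFAF1, NDUFAF3, NDUFAF5 and NDUFAF7, had log2 fold changes of 0.07, 0.16, -0.19 and 0.02 and did not pass. NDUFAF3, the partner of NDUFAF4, had 12.3 and 12.7 FPKM under MGH-CP1, against 11.9 and 10.3 FPKM under vehicle.

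Complex II, which is also the succinate dehydrogenase of the tricarboxylic acid cycle, is encoded wholly in the nucleus. Of its 4 tested genes, 1 passed the test and was lower, a smaller share than the 45.0% of all genes tested. SDHD, one of the membrane anchors (hg19, chr11:111957497-111990353, plus strand), had 21.3 and 21.1 FPKM under MGH-CP1, against 27.2 and 24.5 FPKM under vehicle. Both MGH-CP1 libraries were below both vehicle libraries (log2 fold change -0.27 ± 0.07, limma adjusted p = 0.0163). The call of SDHD held with the library medians centred (limma adjusted p = 0.0446). With no minimum on the mean it did not hold (limma adjusted p = 0.0684). TIMM8B, at 25.4 FPKM, overlaps SDHD on the opposite strand. SDHC, the other anchor, had 49.96 and 52.0 FPKM under MGH-CP1, against 46.6 and 45.1 FPKM under vehicle, which did not pass (log2 fold change 0.15 ± 0.06, limma adjusted p = 0.0661). SDHB, the iron-sulfur subunit, had 40.7 and 42.9 FPKM under MGH-CP1, against 50.6 and 45.1 FPKM under vehicle, which did not pass either (log2 fold change -0.19 ± 0.07, limma adjusted p = 0.0653). SDHA, the flavin-carrying catalytic subunit and the most abundant of the 4, had 79.8 and 78.1 FPKM under MGH-CP1, against 84.6 and 75.9 FPKM under vehicle. The MGH-CP1 values of SDHA lay between the vehicle values (log2 fold change -0.02 ± 0.07), so the 2 anchors had fold changes of opposite sign, of which only that of SDHD passed.

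In complex III, 1 of 7 tested genes was higher and 1 was lower (28.6% called, against 45.0% of all genes tested). UQCRC2, a core protein of the matrix side (hg19, chr16:21963981-21994981, plus strand), had 30.5 and 33.0 FPKM under MGH-CP1, against 25.7 and 26.1 FPKM under vehicle. UQCRFS1, the Rieske iron-sulfur protein that takes electrons from ubiquinol (hg19, chr19:29698173-29704448, minus strand), had 37.3 and 34.0 FPKM under MGH-CP1, against 42.7 and 49.1 FPKM under vehicle. In both MGH-CP1 libraries UQCRC2 was above, and UQCRFS1 below, both vehicle libraries. The log2 fold changes were 0.28 ± 0.06 for UQCRC2 (limma adjusted p = 0.00941) and -0.35 ± 0.08 for UQCRFS1 (limma adjusted p = 0.0111). The pseudogene UQCRFS1P1, listed apart, had 5.05 and 5.50 FPKM under MGH-CP1, against 10.6 and 5.70 FPKM under vehicle, and reads shared with it are a limit on UQCRFS1. UQCRC1, the partner of UQCRC2, had 113 and 118 FPKM under MGH-CP1, against 107 and 98.9 FPKM under vehicle, which did not pass (log2 fold change 0.17 ± 0.06, limma adjusted p = 0.0651). UQCRH, the hinge protein and the most abundant tested member of the complex, had 164 and 162 FPKM under MGH-CP1, against 172 and 138 FPKM under vehicle, and its MGH-CP1 values lay between those of vehicle.

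Complex IV, cytochrome c oxidase, had 1 of 12 tested genes past the test (8.33%, against 45.0% of all genes tested). The gene that passed was higher, and the median log2 fold change of the 12 was 0.11. COX7A2, the broadly expressed form of subunit VIIa (hg19, chr6:75947391-75960039, minus strand) and the most abundant nuclear message of the complex, had 134 and 127 FPKM under MGH-CP1, against 116 and 105 FPKM under vehicle. Both MGH-CP1 libraries lay above both vehicle libraries (log2 fold change 0.24 ± 0.07, limma adjusted p = 0.0268). COX5A had the lowest log2 fold change of the complex, -0.24 ± 0.10, and did not pass (limma adjusted p = 0.0793). The broadly expressed isoforms NDUFA4, COX4I1, COX6A1, COX6B1, COX7B and COX8A had log2 fold changes of 0.00, 0.02, 0.25, 0.14, 0.13 and 0.06, and COX7A2L, which joins complexes III and IV, had -0.05; none passed.

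The isoforms known for restricted expression were at or near 0 in both groups. COX4I2, a lung and hypoxia-linked isoform, COX6A2, a muscle isoform, and COX8C, a testis isoform, were at 0 in all 4 libraries. COX7B2 and COX6B2, known from testis, lay between 0.0965 and 0.438 FPKM and between 0.026 and 0.226 FPKM. COX7A1, the muscle form of subunit VIIa, lay between 0.619 and 0.994 FPKM, far under its paralog COX7A2. NDUFA4L2, the hypoxia-induced paralog of NDUFA4, was at 0.0451 FPKM in the first vehicle library and at 0 in the other 3 libraries. COX6A1P2, which the table types as protein-coding, lay between 0.209 and 1.14 FPKM. All of these were under the minimum mean of 1 FPKM and were not tested.

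Complex V had 4 of 16 tested genes past the test, all of them lower, a smaller share than the 45.0% of all genes tested. All 4 belonged to the 12 core subunits (33.3% called), 9 of which had a log2 fold change below 0 (median -0.12). None of the 4 calls held with the library medians centred (limma adjusted p from 0.068 to 0.169). None held with no minimum on the mean either (limma adjusted p from 0.0788 to 0.153). ATP5A1, the alpha subunit of the catalytic head, had 73.1 and 75.0 FPKM under MGH-CP1, against 83.5 and 82.0 FPKM under vehicle. ATP5C1, the gamma subunit of the central stalk, had 105 and 98.3 FPKM under MGH-CP1, against 120 and 116 FPKM under vehicle. ATP5F1, subunit b of the side stalk, had 38.3 and 35.1 FPKM under MGH-CP1, against 43.1 and 42.7 FPKM under vehicle. In each the MGH-CP1 libraries were the lower pair. Their log2 fold changes were -0.16 ± 0.05 (ATP5A1, limma adjusted p = 0.047), -0.21 ± 0.06 (ATP5C1, limma adjusted p = 0.0242) and -0.22 ± 0.06 (ATP5F1, limma adjusted p = 0.0261). ATP5B, the beta subunit that carries the catalytic sites and the most abundant of all members, had 297 and 290.1 FPKM under MGH-CP1, against 305 and 292 FPKM under vehicle. The first MGH-CP1 value of ATP5B lay between the vehicle values, and its log2 fold change was -0.02 ± 0.06. HAUS1, at 16.0 FPKM, overlaps ATP5A1 on the opposite strand, and WDR77, at 5.52 FPKM, overlaps ATP5F1.

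The c ring of the ATP synthase is made from 3 genes that encode the same mature protein. ATP5G1 (hg19, chr17:46970127-46973233, plus strand) had 17.1 and 15.1 FPKM under MGH-CP1, against 22.1 and 18.6 FPKM under vehicle. ATP5G2 had 28.4 and 26.0 FPKM under MGH-CP1, against 28.5 and 25.2 FPKM under vehicle. ATP5G3 had 20.6 and 19.9 FPKM under MGH-CP1, against 22.4 and 20.7 FPKM under vehicle. Only ATP5G1 passed the test (log2 fold change -0.32 ± 0.10, limma adjusted p = 0.0322), while ATP5G2 and ATP5G3 had 0.02 ± 0.08 and -0.08 ± 0.07; the differences between the 3 fold changes were not tested. ATP5SL and ATP5S, which share the name without being subunits of the synthase, had log2 fold changes of -0.01 and -0.29 and did not pass.

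Summed over each complex, nuclear subunit messages stayed within the spread of the vehicle libraries or close to it. Complex I subunits summed to 1229 and 1203 FPKM under MGH-CP1, against 1311 and 1099.7 FPKM under vehicle. Complex V subunits summed to 728 and 696 FPKM under MGH-CP1, against 796 and 719 FPKM under vehicle, a ratio of 0.94. Over all 79 subunit genes the sums were 3204 and 3117 FPKM under MGH-CP1, against 3368 and 2917 FPKM under vehicle, so that both MGH-CP1 sums lay between those of vehicle. The 13 mRNAs of the mitochondrial genome, which encode the partners of these subunits, summed to 20049 and 16921 FPKM under MGH-CP1, against 8647 and 8045 FPKM under vehicle, a ratio of 2.21. Of these 13, 11 were higher and 1 (MT-ND3) was lower in limma. The largest differences were those of MT-ND6, MT-ND5 and MT-ND4, with log2 fold changes of 2.09, 1.97 and 1.84 (limma adjusted p = 9.6e-06, 7.7e-06 and 3.3e-05). In complex IV the 3 mitochondrial messages summed to 8275 and 6626 FPKM under MGH-CP1, against 2722 and 2646 FPKM under vehicle, while the 11 nuclear subunits summed to 637 and 601 FPKM under MGH-CP1, against 623 and 532 FPKM under vehicle. The ratio of group means was thus 2.78 for the mitochondrial and 1.07 for the nuclear messages of complex IV, and the difference between these ratios was not tested.

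**Figure D3:**
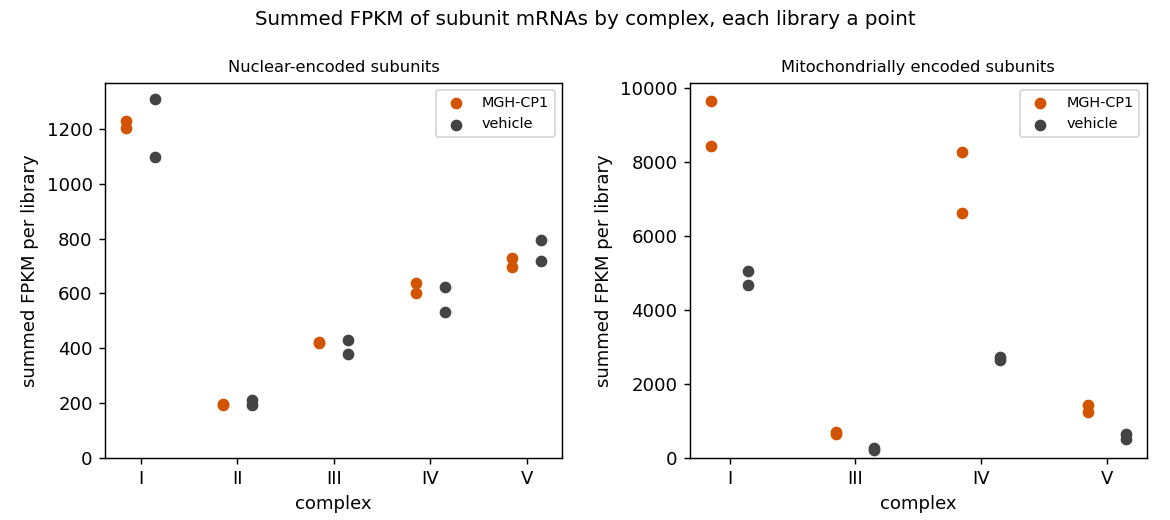
Summed FPKM of the nuclear-encoded subunits (left) and the mitochondrially encoded subunits (right) of each complex, 1 point per library, with MGH-CP1 to the left of vehicle. For nuclear complex I the MGH-CP1 sums (1229 and 1203) lie between the vehicle sums (1311 and 1099.7), whereas for each complex on the right panel both MGH-CP1 sums are above both vehicle sums.

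Among the members the first vehicle library tended to lie above the second. The first vehicle library was above the second in 65 of the 78 tested members (83.3%), against 48.6% of all genes tested, and the median log2 ratio between these libraries was 0.17, against -0.01 (all genes). In 28 members (35.9%) both MGH-CP1 values lay between the vehicle values, which was the case for 7.8% of all genes tested. The MGH-CP1 libraries had a median log2 ratio, first over second, of 0.03 over the members. ATP5H, subunit d of the side stalk, had 16.3 and 15.3 FPKM under MGH-CP1, against 23.6 and 10.5 FPKM under vehicle. NDUFA2 had 3.74 and 3.08 FPKM under MGH-CP1, against 8.61 and 2.45 FPKM under vehicle, and COX6A1 had 7.76 and 8.84 FPKM under MGH-CP1, against 10.9 and 4.12 FPKM under vehicle. These genes therefore read as lower or as higher under MGH-CP1 according to which vehicle library they are set against.

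The vehicle difference moved with gene length. The members were short, with a median gene length of 1585 bases against 3266 for all genes tested, and over the members the log2 ratio of the vehicle libraries had a Spearman rho of -0.35 with length, as a description over 78 genes that share the same 2 libraries (rho = -0.34 over all genes tested and -0.04 for the MGH-CP1 libraries over the members). Of the 21 members under 1000 bases, 90.5% were higher in the first vehicle library, against 61.5% of all tested genes of that length. With the length trend within each library removed, 9 members were higher and 11 lower (25.6% called, against 48.3% of all genes tested). UQCRC1, UQCRQ, SDHC, NDUFB1, NDUFB11, NDUFA8 and NDUFS8 then joined the members called higher. The part of length in the results of single members was otherwise not tested.

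**Figure D4:**
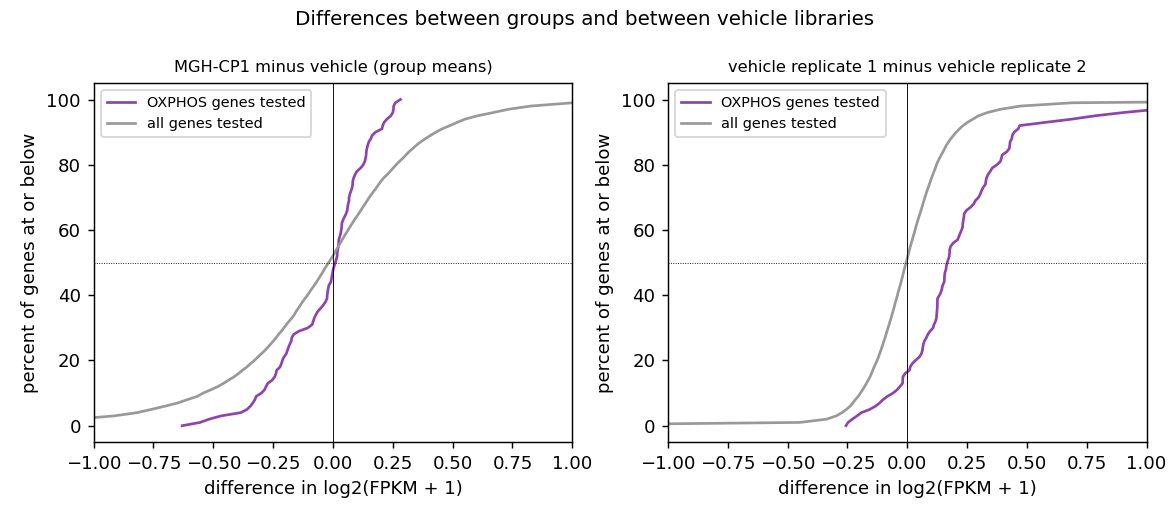
Cumulative distributions of the log2(FPKM + 1) difference for the 78 tested members (purple) and all 11790 genes tested (grey), between MGH-CP1 and vehicle means (left) and between the first and second vehicle library (right), with the axes cut at 1 and -1. On the left the members' curve is steeper around 0 than that of all genes, and on the right most of it lies above 0, with a median of 0.17.

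The 23 members under the minimum mean reached at most 1.42 FPKM in any library, and 8 of them were at 0 in all 4. Besides the restricted isoforms, the paralogs ATP5EP2 and ATP5L2 and the readthrough genes NDUFC2-KCTD14 and ATP5J2-PTCD1, they included 11 entries of subunits under 8 symbols (NDUFA7, NDUFA11, NDUFA13, NDUFB8, NDUFV2, SDHD, UQCR11 and ATP5I). Of the 11 entries, 10 share their strand and span with another listed gene, against 15 of 68 tested subunit entries. ATP5I, the entry without such an overlap, lay between 0.466 and 1.42 FPKM. Whether reads of these genes went unassigned was not tested, so their low values are not taken as a measure of their expression. NDUFV2, a core subunit of complex I, had 0.737 and 1.38 FPKM under MGH-CP1, against 0.632 and 0.696 FPKM under vehicle, while its pseudogene NDUFV2P1 had 3.12 and 3.97 FPKM under MGH-CP1, against 5.13 and 3.42 FPKM under vehicle. In all, 104 pseudogenes of the members' symbols were listed, of which 3 had a mean of at least 1 FPKM.

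Genes that build the complexes without staying in them were counted beside the subunits, with no test between the groups of genes, and each count is read against the 45.0% of all tested genes that passed. Among 21 tested assembly factors of complex IV, 8 passed the test (38.1%, below the share over all genes) and all 8 were lower, with a median log2 fold change of -0.19. COA4, a twin-CX9C protein of the intermembrane space, had 26.4 and 26.7 FPKM under MGH-CP1, against 47.6 and 40.7 FPKM under vehicle (log2 fold change -0.71 ± 0.08, limma adjusted p = 0.000497). LRPPRC, which stabilises mitochondrial mRNAs, had 30.4 and 31.1 FPKM under MGH-CP1, against 44.1 and 49.2 FPKM under vehicle (log2 fold change -0.58 ± 0.07, limma adjusted p = 0.000587). CMC2, the second largest fall of these factors, had 2.27 and 2.40 FPKM under MGH-CP1, against 4.23 and 4.14 FPKM under vehicle. For complex I factors outside the NDUFAF names, 1 of 8 was higher (ECSIT, 0.22) and 3 were lower, of which TMEM126B and FOXRED1 had log2 fold changes of -0.46 each and TMEM70 had -0.30. Of 10 factors of complexes II and III, 2 passed the test and were lower (LYRM7, -0.41, and ACN9, -0.38), and all 10 had log2 fold changes below 0. Of 3 tested assembly factors of complex V, 2 were lower (66.7% called): TMEM70 again and ATPAF1, a chaperone of the ATP synthase head (log2 fold change -0.40). ATPAF2 had a log2 fold change of 0.27 and did not pass (limma adjusted p = 0.0575). Of 3 tested genes linked to supercomplexes, 1 was lower (33.3% called), HIGD1A (-0.28). HIGD2A and COX7A2L, with 0.16 and -0.05, did not pass.

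Cytochrome c and ubiquinone carry electrons between the complexes. CYCS, the cytochrome c gene, had 20.5 and 19.4 FPKM under MGH-CP1, against 40.8 and 36.2 FPKM under vehicle (log2 fold change -0.91 ± 0.07, limma adjusted p = 0.000121). PDSS1, which makes the isoprenoid tail of ubiquinone, had 1.85 and 2.14 FPKM under MGH-CP1, against 6.32 and 4.87 FPKM under vehicle (log2 fold change -1.13 ± 0.13, limma adjusted p = 0.000544). ETFDH, which passes electrons from fatty acid oxidation to ubiquinone, was higher, with 8.69 and 7.64 FPKM under MGH-CP1, against 4.95 and 5.81 FPKM under vehicle (log2 fold change 0.52 ± 0.10, limma adjusted p = 0.00549). Among the 12 tested carrier genes, 1 was higher and 3 were lower (33.3% called, below the share over all genes). CYC1, the cytochrome c1 subunit of complex III that the symbol rule leaves out, had 97.7 and 94.3 FPKM under MGH-CP1, against 124 and 113 FPKM under vehicle (log2 fold change -0.30 ± 0.06, limma adjusted p = 0.00814). The other subunits left out by the rule, USMG5, C14orf2 and ATPIF1, an inhibitor protein of the synthase, did not pass.

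Of 14 tested regulators of nuclear respiratory genes and of mitochondrial transcription, 6 passed the test (42.9%, near the 45.0% of all genes) and all 6 were lower, with a median log2 fold change of -0.14. TFAM, which packages and transcribes mitochondrial DNA, had 11.1 and 12.5 FPKM under MGH-CP1, against 19.6 and 23.2 FPKM under vehicle (log2 fold change -0.80 ± 0.10, limma adjusted p = 0.000626). PPRC1, a coactivator of NRF1, had 11.2 and 10.4 FPKM under MGH-CP1, against 17.2 and 17.7 FPKM under vehicle (log2 fold change -0.65 ± 0.07, limma adjusted p = 0.000399). TFB2M, the initiation factor of mitochondrial transcription, had 6.63 and 7.43 FPKM under MGH-CP1, against 10.7 and 10.1 FPKM under vehicle (log2 fold change -0.50 ± 0.08, limma adjusted p = 0.00263). The MGH-CP1 libraries were below both vehicle libraries in these 3 genes, in the same cells in which 11 of 13 mitochondrial mRNAs were higher. HCFC1, NRF1 and YY1 were also lower, with log2 fold changes of -0.31, -0.29 and -0.19, while GABPA and ESRRA, with 0.14 and -0.11, did not pass. The coactivators PPARGC1A and PPARGC1B stayed under 1 FPKM in every library and were not tested.

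In the tricarboxylic acid cycle and the pyruvate dehydrogenase complex, 2 of 23 tested genes were higher and 7 were lower, SDHD among them, with a median log2 fold change of -0.14. The share that passed, 39.1%, was below the 45.0% of all genes. FH, fumarase, which acts on the product of complex II, had 25.5 and 22.3 FPKM under MGH-CP1, against 37.9 and 34.3 FPKM under vehicle (log2 fold change -0.58 ± 0.08, limma adjusted p = 0.00137). IDH3A, the catalytic subunit of NAD-linked isocitrate dehydrogenase, had 4.54 and 4.61 FPKM under MGH-CP1, against 6.74 and 6.80 FPKM under vehicle. PC, pyruvate carboxylase, was higher, with 61.3 and 59.1 FPKM under MGH-CP1, against 38.5 and 37.4 FPKM under vehicle (log2 fold change 0.65 ± 0.06, limma adjusted p = 0.00015).

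**Figure D5:**
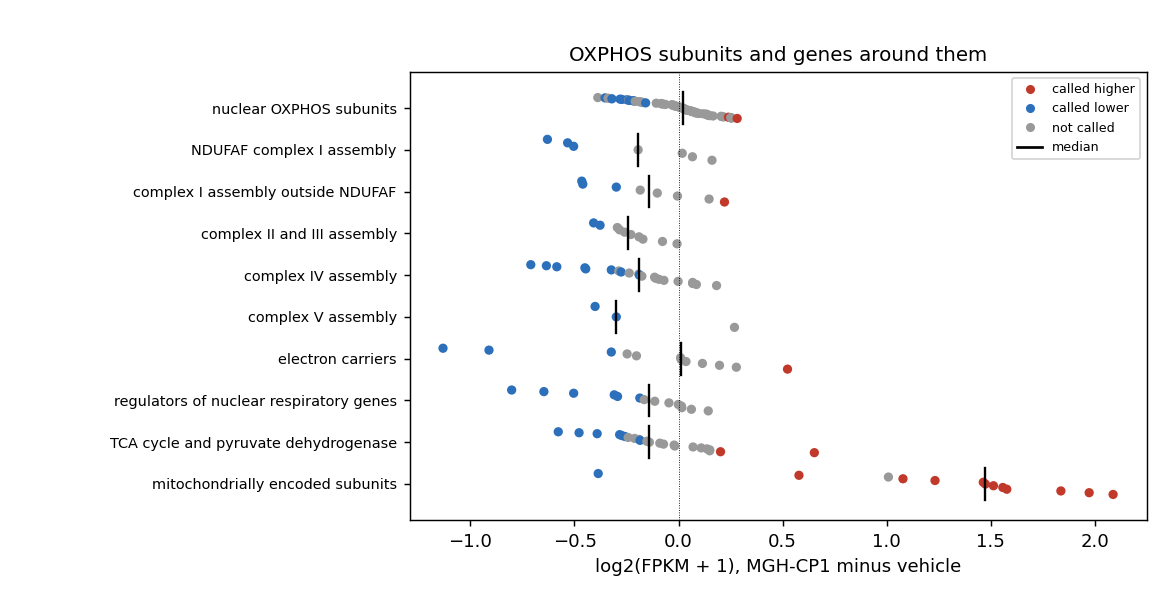
Log2 fold changes (MGH-CP1 minus vehicle, log2(FPKM + 1) scale) of the tested genes in each group, 1 point per gene, with the group's median as a bar. The nuclear subunits lie within 0.39 of 0 with a median of 0.02, the groups of assembly factors and of regulators have medians between -0.30 and -0.14 with single genes on both sides of 0 in most of them, and the mitochondrially encoded mRNAs have a median of 1.48.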

How the data were processed

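The study deposited 1 table of FPKM values for the 4 poly(A) libraries (2 MGH-CP1, 2 vehicle), and the FPKM unit is that of the authors' table. The submitters' processing notes name CASAVA 1.8, the aligner STAR and the build hg19. Which STAR release, counting program, strand setting or gene annotation served is not given in the sources used here. Gene coordinates are those of the deposited table (hg19), and promoter sequences are from RefSeq (GRCh38.p14).

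Members were taken by symbol among protein-coding genes, and 1 of them is counted but not reported here by name or drawn among the fold changes by gene. The members and the other gene lists were chosen with earlier results of these data known, so their counts are no independent support. Named genes were, by rule and per complex, the most abundant tested member and the 3 largest rises and 3 largest falls among called members, every SDH and NDUFAF gene, the isoform families, and in each other list up to 3 called genes with the largest change. Other genes are named after their values were seen, among them NDUFS3, NDUFA10, NDUFV3, ATP5A1, the examples of vehicle spread, and the called regulators beyond the first 3.

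Groups were compared with limma 3.58.1 in R 4.3.3 on log2(FPKM + 1) for the 11790 genes averaging 1 FPKM or more, with group as the only term, variances moderated with a mean-variance trend, and Benjamini-Hochberg adjustment over all genes tested. Calls were made at an adjusted p below 0.05. Fold changes on this scale understate the change of genes with low values. The fit was tested on simulated data. Multiplied by gene length, 100% of the values above 0 in each library were whole multiples of 1 step (tolerance 0.001), which gave the reads per library. The read numbers bear on counting error only. Alternatives were a pseudocount of 0.1, no minimum, a minimum of 5 FPKM, median centring, voom on the recovered reads, a replicate block, each library left out, subunits only and members without an expressed overlapping gene. In the symbol column 29 entries read as dates, so genes were joined by identifier. Python 3.11.15 was used with matplotlib 3.10.9, scipy 1.17.1, numpy 2.4.6 and pandas 2.3.3.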

Additional observations from a re-analysis of the deposited data

How the results depend on the processing

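The count of members higher under MGH-CP1 (2) became 4 with median centring, 1 with no minimum (93 members tested) and 9 with the length trend removed, an alternative chosen after seeing the data. The count lower (12) became 6 with median centring, 2 with no minimum and 7 without members that overlap an expressed gene. These 7 were 13% of the 54 members left, against 25.1% of all genes tested. With median centring 12.8% of the members were called, against 45.0% of all genes. The shares were 3.23% against 14.6% with no minimum, and 25.6% against 48.3% with the length trend removed. Leaving out each library in turn gave 0 to 25 members higher and 3 to 25 lower, with the widest shifts from the vehicle libraries. Over all genes, the count higher (2355) became 1568 with no minimum and ranged from 1460 to 2556 with a library left out. The members' median log2 fold change, 0.01 in the full fit, ranged from -0.10 (without the second vehicle library) to 0.11 (without the first). The SD of the members' median level within a group (0.12) comes from these same libraries, so it cannot serve to judge these shifts. The fit with a replicate block gave 2453 genes higher and 3036 lower, and 2 and 14 members; the numbers are only shared by the libraries, since same-numbered libraries had a correlation of deviations of 0.05 over genes. Voom on the recovered reads gave 3 members higher and 14 lower (21.8% called, against 48.8% of all genes tested). With the replicate block 20.5% of members were called, against 46.6% of all genes. All 14 called members kept their direction under all of these alternatives. For the fits without a library, with another minimum or with a replicate block, this was fixed in advance. With 2 libraries a group the median SE of a member's log2 fold change was 0.09, so changes of that order were not detectable here.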

Other observations

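Genes that couple or bypass the respiratory chain were counted as well. Of 6 tested uncoupling and shunt genes, 3 passed the test in limma and all 3 were lower, a share of 50% beside, and near, the 45.0% of all tested genes. DHODH, which feeds electrons from pyrimidine synthesis to ubiquinone, had 2.72 and 2.40 FPKM under MGH-CP1, against 3.65 and 4.53 FPKM under vehicle (log2 fold change -0.51 ± 0.12, limma adjusted p = 0.012). GPD2, the mitochondrial glycerol phosphate dehydrogenase, had 14.1 and 16.3 FPKM under MGH-CP1, against 19.4 and 19.2 FPKM under vehicle (log2 fold change -0.33 ± 0.08, limma adjusted p = 0.0134). UCP2, an uncoupling protein family member, was lower too (log2 fold change -0.23 ± 0.07, limma adjusted p = 0.0413). The adenine nucleotide carriers SLC25A4, SLC25A5 and SLC25A6, which exchange ADP for ATP, had log2 fold changes of -0.08, -0.10 and 0.08 and did not pass.

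Of 6 tested genes known to adjust respiration under low oxygen, 3 were higher and 1 was lower. The share called was 66.7%, over only 6 genes, against 45.0% of all genes tested. PDK3, which inhibits pyruvate dehydrogenase, had 10.1 and 11.5 FPKM under MGH-CP1, against 8.70 and 9.21 FPKM under vehicle (log2 fold change 0.25 ± 0.09, limma adjusted p = 0.0477). BNIP3 and BNIP3L, receptors of mitophagy, had log2 fold changes of 0.17 and 0.18 (limma adjusted p = 0.0413 and 0.0435). HIGD1A was the lower one, and LONP1 and PDK1, with -0.09 and 0.04, did not pass.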
